A study of Mus musculus with 14 samples.

Results

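The Slc22 organic ion transporters were examined in the liver of male (M) and female (F) CD-1 mice, an outbred stock, aged 3, 4 or 8 wk. The 9 genes of interest were Slc22a3, Slc22a5, Slc22a7, Slc22a15, Slc22a18, Slc22a23, Slc22a26, Slc22a28 and Slc22a30, and their probes were found through the RefSeq accession that the array design gives for each probe. By this rule 8 of the 9 genes had a probe, out of 19751 named genes, and 10 of the 39429 probes on the array belonged to them. No probe was mapped to Slc22a30, which was not analysed here. A further 16 Slc22 genes with a probe are given for comparison. No treatment, transgene or mutation was given for any group, and the 6 groups (M3, M4, M8, F3, F4 and F8, named by sex and age in wk) differed by sex and age. Each group had 2 pools of liver RNA, of 5 mice per pool at 3 wk and 6 mice per pool at 4 and 8 wk. Pools were hybridized in 7 comparisons, each on 2 arrays of 2 colours with the dyes exchanged. The sexes were compared at each age (M3/F3, M4/F4 and M8/F8), and the adults were set against younger mice in females (F8/F3 and F8/F4) and in males (M8/M3 and M8/M4). A pool averages over its mice, so the spread between 2 pools does not give the spread between mice, and in whole liver fewer cells of a type and less RNA per cell cannot be told apart.

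Transporters of the Slc22 family sit in the plasma membrane and move small organic ions into or out of cells. They fall into organic cation transporters, carnitine and zwitterion transporters, and organic anion transporters, and in the liver they take up endogenous metabolites, drugs and toxins from the blood at the sinusoidal membrane of hepatocytes. Rodents carry an expanded group of organic anion transporter genes that lie next to each other on chromosome 19. Growth hormone, which is secreted in pulses in adult males and more evenly in adult females, sets many sex differences of the adult rodent liver through the transcription factor STAT5B.

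Along chromosome 19 the order was Slc22a19, Slc22a26, Slc22a27, Slc22a28, Slc22a29, Slc22a30, Slc22a8 and Slc22a6 in RefSeq. The promoters of the members Slc22a26 and Slc22a28 are shown because these genes of the cluster changed in opposite directions in males, and that of Slc22a29 as an example of a gene that adjoins Slc22a28. Each sequence runs 5′ to 3′ on the transcribed (minus) strand from 250 bases before to 50 bases after the annotated start (RefSeq, GRCm38.p6), and capitals mark a match to the STAT5 motif TTCNNNGAA or the HNF1 motif GTTAATNAT on either strand.
Slc22a26, chr19:7802618-7802917, minus strand: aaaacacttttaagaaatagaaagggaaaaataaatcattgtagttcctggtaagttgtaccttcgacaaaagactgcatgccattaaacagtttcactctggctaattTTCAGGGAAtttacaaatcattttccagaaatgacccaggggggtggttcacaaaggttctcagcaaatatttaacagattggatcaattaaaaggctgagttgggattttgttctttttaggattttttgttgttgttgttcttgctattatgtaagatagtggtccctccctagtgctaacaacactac
Slc22a28, chr19:8131933-8132232, minus strand: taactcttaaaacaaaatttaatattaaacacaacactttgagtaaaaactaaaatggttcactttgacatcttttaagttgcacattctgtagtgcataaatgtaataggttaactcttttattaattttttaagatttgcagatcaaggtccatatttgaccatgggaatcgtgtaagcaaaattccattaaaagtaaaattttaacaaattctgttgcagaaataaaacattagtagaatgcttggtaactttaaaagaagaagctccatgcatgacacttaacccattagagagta
Slc22a29, chr19:8218851-8219150, minus strand: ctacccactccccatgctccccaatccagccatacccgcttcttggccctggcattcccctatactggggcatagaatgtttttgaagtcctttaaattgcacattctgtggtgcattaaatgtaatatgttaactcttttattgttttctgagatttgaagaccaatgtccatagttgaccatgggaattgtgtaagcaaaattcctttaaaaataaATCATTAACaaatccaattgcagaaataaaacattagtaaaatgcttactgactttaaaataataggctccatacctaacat
The Slc22a26 promoter held 1 STAT5 match, TTCAGGGAA, that began at position -141 from the start. The Slc22a28 promoter held no match to either motif, and that of Slc22a29 held 1 HNF1 match, ATCATTAAC, that began at position -32. The HNF4 motif CAAAGTCCA was found in none of the 3, and no match overlapped another. Among 32851 promoters of this length, 8.30% held the STAT5 motif, 0.801% the HNF1 motif and 0.475% the HNF4 motif. Of the other members, Slc22a15 held 1 STAT5 match (TTCTCGGAA, at -164), and the promoters of Slc22a3, Slc22a5, Slc22a18, Slc22a23 and Slc22a30 held no match to the 3 motifs. The promoter table matched 8 of the 9 members, all but Slc22a7. Of all 23 Slc22 entries, 4 held the STAT5 motif, in Slc22a15, Slc22a16, Slc22a19 and Slc22a26. The promoter of Slc22a27, which was also far lower in M8 than in F8, held no match to the 3 motifs. The promoters of Slc22a28 and Slc22a30 were identical in 94.1% of aligned positions, those of Slc22a28 and Slc22a29 in 68.0%, and those of Slc22a26 and Slc22a28 in 50.3%. A match describes these letters and is not evidence that a factor binds there.

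Ratios are given as log2 of male over female or of 8 wk over the younger age. A gene was called when its limma p-value, adjusted over all probes and all 7 comparisons, was below 0.05, the ratio passed 1.5-fold, and the brighter of the compared groups stood well above background on each of its 2 arrays. Levels are log2 of intensity normalized separately from the ratios, averaged per pool, so their differences need not equal the ratios. They depend on the probe, so they are compared between groups and not between genes. For all 8 measured members the brighter probe was well above background in all 28 array channels.

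Slc22a26, Slc22a28 and Slc22a3 differed between the sexes at 8 wk, and Slc22a26 did so by far more than the other 2. Slc22a26 was 33.1-fold lower in M8 than in F8, Slc22a28 was 1.79-fold higher in M8, and Slc22a3 was 2.25-fold lower in M8. These were 3 of 8 measured members, where 6.43% of all genes tested were called in M8/F8. At 3 and 4 wk, Slc22a3 was the 1 member called, lower in males both times, where 0.517% and 1.59% of all genes were called. From 3 to 8 wk, 3 members were called in males (Slc22a5 and Slc22a28 rose, Slc22a26 fell) and 3 in females (Slc22a5 and Slc22a28 rose, Slc22a7 fell), where 17.9% of all genes were called in M8/M3 and 11.7% in F8/F3. From 4 to 8 wk, 2 were called in males (Slc22a28 rose, Slc22a26 fell) and 2 in females (Slc22a5 rose, Slc22a7 fell), where 10.9% and 6.01% were called. The M8 pools enter M8/F8, M8/M3 and M8/M4, and the F8 pools enter M8/F8, F8/F3 and F8/F4, so these comparisons share samples.

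**Figure D1:**
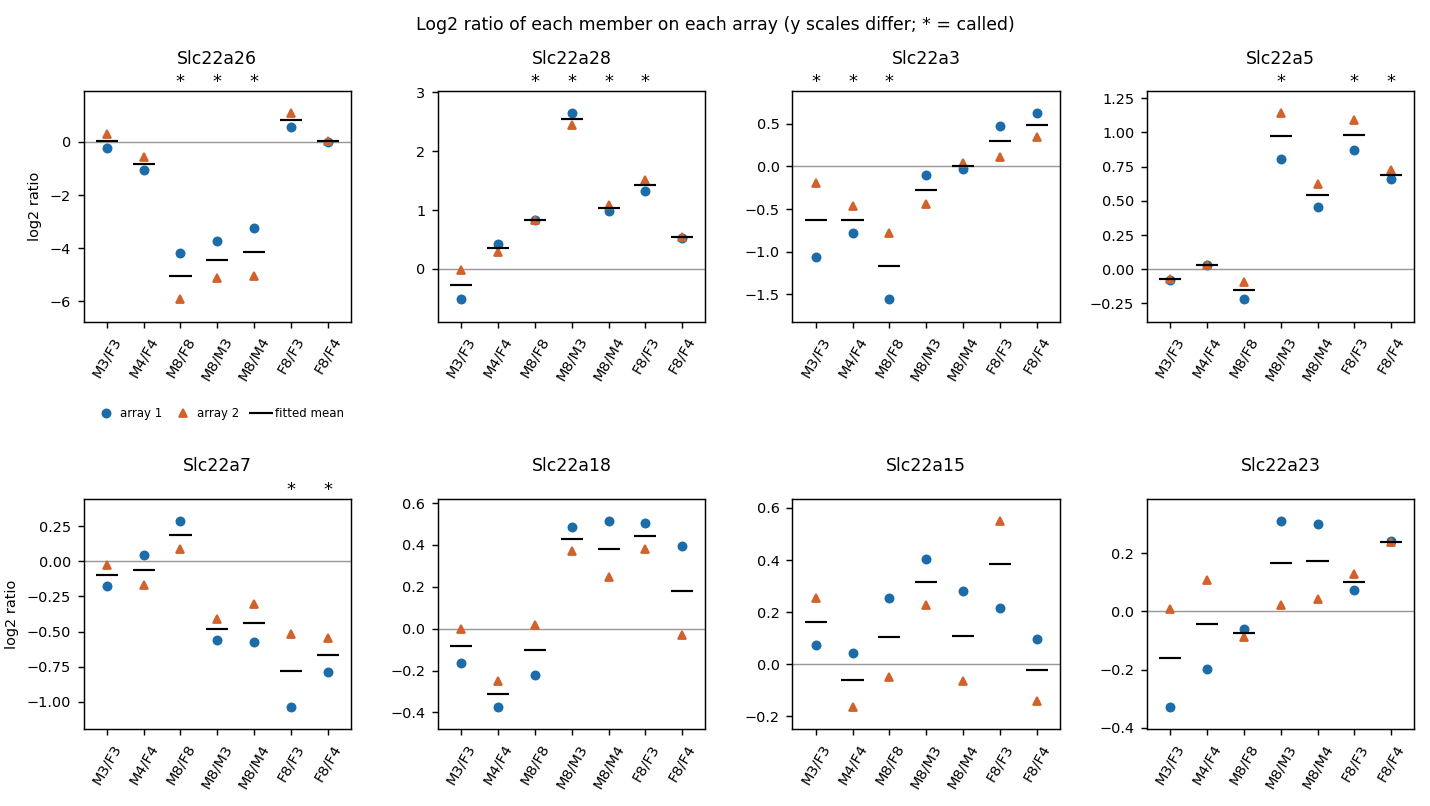
Log2 ratio (y axis, scales differ between panels) of the 8 measured members in each of the 7 comparisons (x axis), with a circle for array 1, a triangle for array 2 and a line for the fitted mean. Asterisks mark called comparisons. Slc22a26 lies between -3.22 and -5.92 on all 6 arrays that hold M8.

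Among the organic anion transporters, Slc22a26 belongs to the rodent group on chromosome 19. The level of Slc22a26 in the 2 pools was 13.49 and 13.44 in M3, 13.21 and 13.73 in M4, and 10.04 and 8.95 in M8. In females the Slc22a26 level was 13.69 and 13.27 in F3, 14.18 and 14.30 in F4, and 14.19 and 14.36 in F8. Both M8 pools were thus below every other pool. The order from high to low was F8, F4, F3, M4, M3 and M8. The pools of F8 and F4 overlapped, those of F3, M4 and M3 overlapped from one to the next, and those of F4 and F3, and of M3 and M8, did not.

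The M8/F8 log2 ratio of Slc22a26 was -4.17 and -5.92 on the 2 arrays (mean -5.05, SE 0.56, adjusted p = 0.00192). At 3 wk the Slc22a26 ratio was -0.23 and 0.28 (mean 0.03, adjusted p = 1), and at 4 wk it was -1.07 and -0.56 (mean -0.81, SE 0.56, adjusted p = 0.454). Both 4 wk arrays were thus below 0, and the difference at that age did not pass the test. With age, Slc22a26 in males fell 21.6-fold from 3 to 8 wk (-3.72 and -5.14, adjusted p = 0.00316) and 17.5-fold from 4 to 8 wk (-3.22 and -5.04, adjusted p = 0.00415). In females the Slc22a26 log2 ratio was 0.55 and 1.09 in F8/F3 (mean 0.82, adjusted p = 0.45) and 0.00 and 0.04 in F8/F4 (mean 0.02, adjusted p = 1). Array 2 gave the lower Slc22a26 ratio in all 3 comparisons with M8, and M8 pool 2 enters each of them.

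The age change of Slc22a26 from 3 to 8 wk differed between males and females (M8/M3 minus F8/F3 = -5.25 on the log2 scale, SE 0.79, adjusted p = 0.0182), in a test in which 3.39% of all genes were called. The corresponding difference from 4 to 8 wk was -4.15 (SE 0.79, adjusted p = 0.0658) and was not called for Slc22a26, where 1.34% of all genes were. The sex arrays gave the same quantity for Slc22a26, as M8/F8 minus M3/F3, at -5.07. They carry the same pools, so this value is not an independent estimate. Without any 1 of the 4 arrays in M8/M3 and F8/F3, the Slc22a26 difference from 3 to 8 wk lay above the adjusted p of 0.05 (highest 0.0999).

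Slc22a28 lies in the same chromosome 19 group. The level of Slc22a28 was 13.14 and 13.27 in M3, 14.61 and 14.44 in M4, and 15.62 and 15.51 in M8. In females the Slc22a28 level was 13.56 and 13.24 in F3, 14.25 and 14.24 in F4, and 14.78 and 14.73 in F8. Levels therefore stood higher at each later age in both sexes, and the order was M8, F8, M4, F4, F3 and M3, in which only the pools of F3 and M3 overlapped.

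Slc22a28 rose 5.84-fold from 3 to 8 wk in males (log2 ratio 2.64 and 2.45, SE 0.11, adjusted p = 0.000113). In females Slc22a28 rose 2.67-fold over the same ages (1.32 and 1.51, adjusted p = 0.000576). From 4 to 8 wk Slc22a28 rose 2.05-fold in males (0.99 and 1.09, adjusted p = 0.00175), and in females the ratio of 1.45-fold (0.53 and 0.55, adjusted p = 0.0217) stayed under the 1.5-fold threshold. The part of the male increase between 3 and 4 wk, taken through M8, was 1.51 on the log2 scale (SE 0.16, adjusted p = 0.0274), a 2.85-fold difference, where 0.292% of all genes were called, and that of females was 0.88 (adjusted p = 0.125), where 0.0931% were. The male value lost its call without any 1 of its 4 arrays and with the slide as a block.

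The M8/F8 log2 ratio of Slc22a28 was 0.84 on both arrays (SE 0.11, adjusted p = 0.00401). At 3 wk the Slc22a28 ratio was -0.51 and -0.02 (mean -0.27, adjusted p = 0.185), and at 4 wk it was 0.42 and 0.29 (mean 0.35, adjusted p = 0.0911). The mean ratio thus lay below 0 at 3 wk and above 0 at 8 wk. The age change of Slc22a28 from 3 to 8 wk was larger in males by 1.13 on the log2 scale (SE 0.16, adjusted p = 0.0146), and from 4 to 8 wk the difference was 0.50 (adjusted p = 0.234). The first of these lost its call without either M8/M3 array or without F8/F3 array 1 (highest adjusted p 0.0931). The second Slc22a28 probe had the same calls with smaller ratios, of 1.97 in M8/M3, 1.06 in F8/F3, 0.90 in M8/M4 and 0.76 in M8/F8. How far the Slc22a28 probes also detect transcripts of neighbouring genes was not tested.

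**Figure D2:**
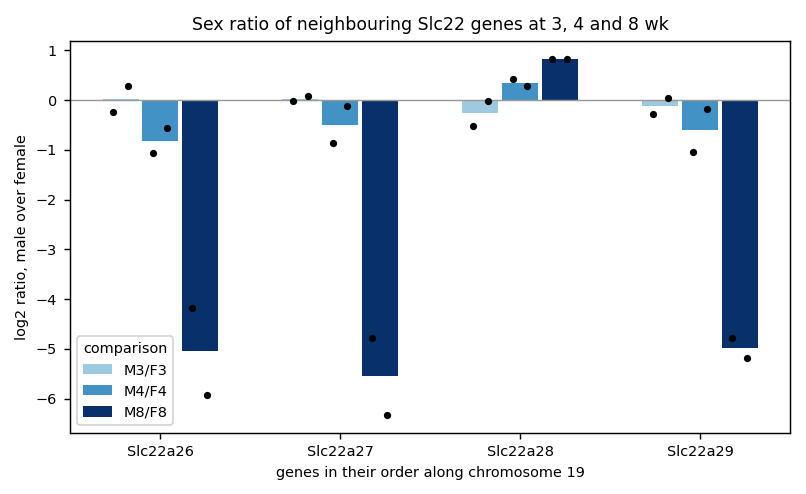
Log2 ratio of male over female (y axis) at 3, 4 and 8 wk for 4 neighbouring Slc22 genes in their order along chromosome 19 (x axis); bars are fitted means and points are the 2 arrays. At 8 wk Slc22a26, Slc22a27 and Slc22a29 lie at -5.05, -5.55 and -4.98, and Slc22a28 between them at 0.84.

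Of the 16 other Slc22 genes, 7 were bright enough to be called in M3/F3 and in M4/F4 and 8 in M8/F8. None was called in M3/F3 or M4/F4, where 0.517% and 1.59% of all genes tested were. Slc22a27, Slc22a29 and Slc22a16 were called in M8/F8, where 6.43% of all genes tested were. The first 2 are chromosome 19 neighbours of these members. Slc22a27 was lower in M8 than in F8 (log2 ratio -4.78 and -6.32, adjusted p = 0.00116), and so was Slc22a29 (-4.77 and -5.18, adjusted p = 0.000189). Slc22a28, which lies between them, was thus flanked on both sides by genes of the opposite sex ratio. In males Slc22a27 fell by 6.53 and Slc22a29 fell by 5.96 on the log2 scale from 3 to 8 wk. In females Slc22a29 also fell from 3 to 8 wk (-1.53 and -1.37, adjusted p = 0.0152), and Slc22a27 had a mean ratio of -1.25 (adjusted p = 0.194), where Slc22a26 had 0.82. The difference between Slc22a26 and its neighbours in females was not tested.

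Slc22a7 (OAT2) is the organic anion transporter typical of hepatocytes. The level of Slc22a7 was 14.21 and 14.22 in M3, 14.28 and 14.04 in M4, and 13.74 and 13.68 in M8. In females the Slc22a7 level was 14.33 and 14.16 in F3, 14.24 and 14.12 in F4, and 13.41 and 13.53 in F8. Both adult groups were below all younger pools, F8 was below M8 without overlap, and the pools of the 4 younger groups overlapped.

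Slc22a7 in females fell 1.71-fold from 3 to 8 wk (log2 ratio -1.04 and -0.52, SE 0.09, adjusted p = 0.00261) and 1.59-fold from 4 to 8 wk (-0.79 and -0.55, adjusted p = 0.00465). In males the Slc22a7 ratio was -0.48 in M8/M3 (adjusted p = 0.0162) and -0.44 in M8/M4 (adjusted p = 0.0236), both under 1.5-fold. The direct difference between the sexes in this age change was 0.29 from 3 to 8 wk (adjusted p = 0.31, 95% interval -0.02 to 0.61) and 0.23 from 4 to 8 wk (adjusted p = 0.522), so the sexes were not shown to differ. In the 3 sex comparisons the mean Slc22a7 ratio lay between -0.10 and 0.19.

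Among the organic cation transporters, Slc22a3 (OCT3, or the extraneuronal monoamine transporter) carries monoamines and drugs. The level of Slc22a3 was 7.96 and 8.40 in M3, 7.87 and 8.06 in M4, and 7.90 and 8.12 in M8. In females the Slc22a3 level was 8.59 and 8.68 in F3, 8.40 and 8.44 in F4, and 8.93 and 8.73 in F8. Every female pool was above every male pool of the same age, and the pools of the 3 male groups overlapped. The order was F8, F3, F4, M3, M8 and M4.

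The Slc22a3 log2 ratio was -1.06 and -0.20 in M3/F3 (mean -0.63, SE 0.15, adjusted p = 0.0343), and it was -0.78 and -0.47 in M4/F4 (mean -0.63, adjusted p = 0.0348). In M8/F8 the Slc22a3 ratio was -1.56 and -0.78 (mean -1.17, SE 0.15, adjusted p = 0.0033). Slc22a3 was therefore lower in males on all 6 sex arrays. The calls at 3 and 4 wk lie close to the threshold. Both were lost with normexp background correction and loess dye normalization, which were changed together. Both calls were also lost without the dye term or with adjustment within each comparison (adjusted p = 0.287 and 0.129). That of M3/F3 was lost without array 1 (log2 ratio -0.36), and that of M4/F4 without either array. None of the 4 age comparisons was called for Slc22a3, and the F8/F4 ratio was 0.62 and 0.34 (mean 0.48, adjusted p = 0.0843). The sexes were not shown to differ in the Slc22a3 age change (M8/M3 minus F8/F3 = -0.57, adjusted p = 0.216).

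Of the neighbours of Slc22a3 on chromosome 17, Igf2r, Slc22a2, Mas1 and Plg were not called in any of the 7 comparisons.

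Among the carnitine transporters, Slc22a5 (OCTN2) imports carnitine, which carries long-chain fatty acids into mitochondria. The level of Slc22a5 was 9.53 in both M3 pools, 9.84 and 9.83 in M4, and 10.26 and 10.44 in M8. In females the Slc22a5 level was 9.55 and 9.50 in F3, 9.74 and 9.79 in F4, and 10.35 and 10.48 in F8. Levels were higher at each later age, and the pools of M8 and F8 overlapped, as did those of M3 and F3.

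Slc22a5 rose 1.96-fold from 3 to 8 wk in males (log2 ratio 0.80 and 1.14, SE 0.08, adjusted p = 0.000561) and 1.97-fold in females (0.87 and 1.09, adjusted p = 0.000543). The sex difference of this change in Slc22a5 was -0.01 with a 95% interval of -0.27 to 0.25. From 4 to 8 wk Slc22a5 rose 1.62-fold in females (0.66 and 0.73, adjusted p = 0.0019), and in males the ratio of 1.45-fold (0.46 and 0.62, adjusted p = 0.00487) stayed under the threshold. The sexes were not shown to differ over these ages (-0.15, adjusted p = 0.635). The largest of the 3 sex ratios of Slc22a5 was -0.15 in M8/F8 (adjusted p = 0.265).

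The related genes Slc22a4 (OCTN1) and Slc22a21 (OCTN3) are not members. Slc22a4 rose in all 4 age comparisons, by 2.40 (M8/M3) and 1.90 (M8/M4) in males and by 1.73 (F8/F3) and 1.14 (F8/F4) in females on the log2 scale. Slc22a21 rose by 0.99 in M8/M3, 0.96 in F8/F3 and 0.75 in F8/F4, and neither gene was called in a sex comparison. Slc22a16, a carnitine transporter known from testis, was not well above background in M3 or F4. Its fitted log2 ratio was 4.55 in M8/M3 (limma, adjusted p = 8.71e-05) and 1.62 in F8/F4 (adjusted p = 0.00208), each against a dim group. Slc22a16 was also called higher in M8/M4 (3.23) and F8/F3 (2.07). By level it was at least 1.74-fold higher in M8 than in M3 and at least 1.19-fold higher in F8 than in F4. These lower bounds set the mean of the brighter group against the dimmer group's own signal or the lowest signal well above background, whichever was higher. In M8/F8 Slc22a16 was called higher in males (log2 ratio 2.86 and 2.41, mean 2.63), with F8 well above background on 1 of 2 arrays. Over all arrays its level was 8.04 and 8.03 in the M8 pools and 6.80 and 6.86 in the F8 pools.

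Of 8 genes of carnitine synthesis and the carnitine shuttle (Tmlhe, Aldh9a1, Bbox1, Cpt1a, Cpt2, Slc25a20, Crat and Crot), none was called in M8/M3, in F8/F4 or between the sexes. In F8/F3, where 11.7% of all genes tested were called, Aldh9a1, an enzyme of carnitine synthesis, rose by 0.69 on the log2 scale (adjusted p = 0.00743). In M8/M4, where 10.9% of all genes tested were called, Crot, which transfers medium-chain acyl groups to carnitine, fell by 0.91 (adjusted p = 0.000852). Crat, which transfers acetyl groups, fell by 0.63 in M8/M4 (adjusted p = 0.0474). The 8 genes had a median log2 ratio of 0.19 from 3 to 8 wk in males, where all genes tested had 0.01, and of 0.22 in females, where all genes had 0.02.

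**Figure D3:**
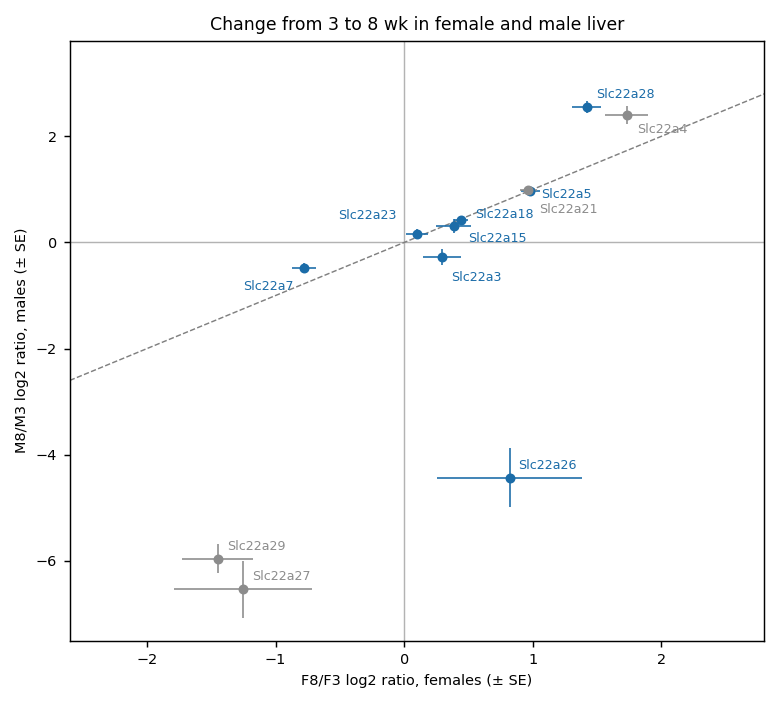
Log2 ratio of 8 over 3 wk in females (x axis) and in males (y axis) for the 8 measured members (blue) and 4 other Slc22 genes named in the text (grey), all well above background in all 4 groups, with bars of 1 SE; the dashed line marks equal change. Slc22a5 (0.98 and 0.97) lies on the line, Slc22a28 (1.42 and 2.55) above it, and Slc22a26 (0.82 and -4.43) far below it.

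The remaining 3 members, Slc22a18, Slc22a15 and Slc22a23, have less defined substrates, and none was called in any comparison. Slc22a18 lies in an imprinted region of chromosome 7. The level of Slc22a18 was 15.09 and 15.10 in M3, 15.07 and 15.16 in M4, and 15.55 and 15.43 in M8. In females the Slc22a18 level was 15.19 and 15.07 in F3, 15.37 and 15.45 in F4, and 15.63 and 15.47 in F8. The adult pools of both sexes were above the 3 wk pools. The Slc22a18 ratio was 0.43 in M8/M3 (adjusted p = 0.00368), 0.38 in M8/M4 (adjusted p = 0.00582) and 0.44 in F8/F3 (adjusted p = 0.00323), all under 1.5-fold, and it was -0.31 in M4/F4 (adjusted p = 0.0123).

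Slc22a23 levels ranged from 13.28 in an M4 pool to 13.72 in an F8 pool, and its largest mean log2 ratio was 0.24 in F8/F4 (adjusted p = 0.121). Slc22a15 levels ranged from 9.09 in an F3 pool to 9.88 in an M8 pool, and its largest mean ratio was 0.38 in F8/F3 (0.22 and 0.55, adjusted p = 0.121). The dimmer Slc22a15 probe gave -0.06 in that comparison (0.20 and -0.33) and was not called in any. Of 9 imprinted or neighbouring genes on chromosome 7, Cdkn1c, a cell cycle inhibitor, fell by 1.57 in M8/M3 and by 0.72 in F8/F3, and Phlda2 fell by 1.72 in F8/F3 (adjusted p = 0.0122) and by 1.74 in F8/F4. Cdkn1c also fell by 1.02 in M8/M4. At 8 wk Cdkn1c was lower in males (log2 ratio -0.75, adjusted p = 0.00137) and Phlda2 was higher in males (1.66, adjusted p = 0.014), and no other gene of the 9 was called.

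**Figure D4:**
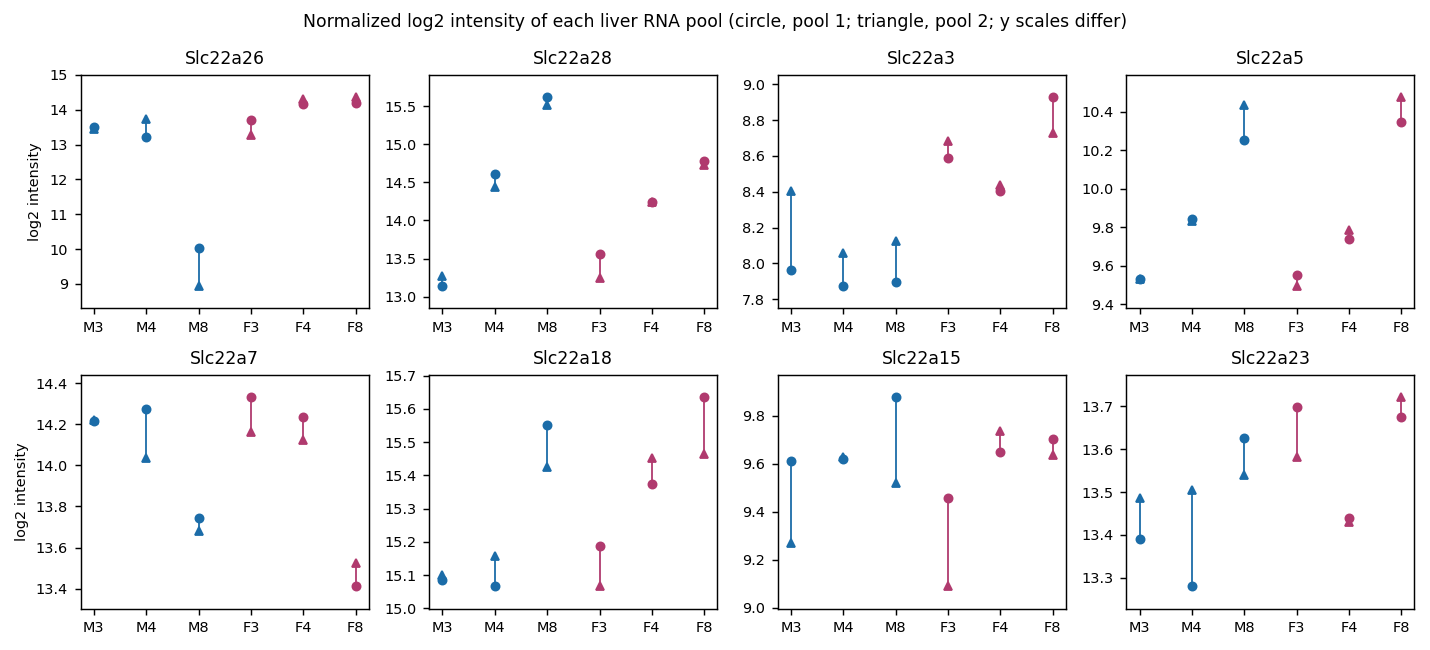
Normalized log2 intensity (y axis, scales differ between panels) of the 8 measured members in each group (x axis), with a circle for pool 1 and a triangle for pool 2, males in blue and females in purple. Slc22a26 in M8 (10.04 and 8.95) lies below all other pools, and Slc22a5 is higher at 8 wk in both sexes.

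Organic ions that enter hepatocytes through Slc22 transporters leave through exporters, of which 9 were listed (Slc47a1, Slc47a2, Abcb1a, Abcb1b, Abcg2, Abcc2, Abcc3, Abcc4 and Abcc6). In M8/F8, 8 of the 9 were bright enough and 3 were called, where 6.43% of all genes tested were. Abcg2 and Abcb1b were higher in males and Abcb1a was lower. Abcg2 (BCRP), an exporter of sulfated and other anions at the bile canaliculus, was higher in males by 1.29 on the log2 scale (1.26 and 1.32, adjusted p = 0.000107). Abcb1a, a drug exporter, was lower in M8 than in F8 with a log2 ratio of -1.13 (-1.18 and -1.09, adjusted p = 0.0016), and in males it fell by 0.77 in M8/M3 and by 0.79 in M8/M4. Abcb1b, another drug exporter, was higher in M8 than in F8 by 0.71 (0.96 and 0.47, adjusted p = 0.0174). Abcg2 rose by 0.67 in M8/M3. Abcc3 (MRP3), which exports anions back to the blood, rose by 1.72 in M8/M3 (adjusted p = 0.00013) and by 1.22 in F8/F3 (adjusted p = 0.000348).

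The genes outside the Slc22 family whose ratios lay closest to those of each member over the 14 arrays were named by the root mean square difference of log2 ratios among 12842 genes. For Slc22a26 they were Cyp2b9 (0.592), Abcd2 (0.756) and Cyp2a22 (0.846). For Slc22a28 they were Sucnr1 (0.251), Etnppl (0.315) and Unc93a (0.376). For Slc22a3 they were Setbp1 (0.207), Por (0.265) and Fibin (0.301). The arrays share pools, so this is a description. The M8/F8 log2 ratio of Cyp2b9, a cytochrome P450, was -4.55, that of Sucnr1, a succinate receptor, was 1.09, and that of Por, the electron donor of microsomal P450 enzymes, was -0.94.

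Across the series, 55.2% to 77.2% of spots per channel were well above background and none was saturated, and Xist and 3 Y-linked genes were called in the labelled direction at every age. The hepatocyte markers Alb, Apoa1, Ttr and Cps1 were well above background in all 28 channels (Alb fell by 0.71 in M8/M3 and by 0.68 in M8/M4). Of the 6 measured kidney markers, Aqp2 was well above background in 28 channels, Kap in 25, Slc34a1 in 15, Umod in 1 and Slc12a1 in 0. The remaining kidney marker is not reported here. Kap rose by 1.29 in M8/M3, 0.73 in F8/F3 and 0.67 in F8/F4 on the log2 scale, and Aqp2, Slc34a1, Umod and Slc12a1 were not called in any comparison. Markers of other liver cells moved with some comparisons. In M8/F8, 3 of 4 measured Kupffer cell markers were lower in males (Marco, Adgre1 and Clec4f), where 6.43% of all genes tested were called. The summed intensity of the 4 was 27532 and 21407 in M8 and 37146 and 34056 in F8. Marco was also lower in M4 than in F4 and fell in all 4 age comparisons, and Adgre1 fell in both male ones. Of the 5 bile duct markers, Krt19 fell in both male age comparisons, Krt7 in M8/M3 and Sox9 in both female ones, and Spp1 was higher in M4 than in F4. Their summed intensity was 19643 and 14374 in M3 and 11431 and 11525 in F3. In M8/M3 and F8/F3, Col1a1 and Col3a1 of the 5 stellate and mesenchymal markers fell, with a summed intensity of 83543 and 69172 in M8 against 170698 and 149644 in M3, and both genes fell in M8/M4 and F8/F4 as well. The sinusoidal endothelial marker Lyve1 (1 of 5) fell in M8/M3 (-1.42 and -0.98), by 0.85 in M8/M4 and by 0.94 in F8/F3, and the lymphocyte marker Cd8a (1 of 5) fell by 0.64 in M8/M3 on the log2 scale. Of the 5 erythroid markers, 3 fell in each of the 4 age comparisons, Slc4a1 and Epb42 among them, and Alas2 was higher in M4 than in F4 and higher in M8 than in F8, M3 and M4. The summed intensity of the 5 was 21781 and 18243 in M8 and 6957 and 4445 in F8. In M3 the sum was 9469 and 7733, lower than in M8, while the median log2 ratio of the 5 was -1.93 in M8/M3. The sum thus does not stand for all 5 markers. In M8/F8, 3 of the 5 were bright enough, and Alas2 was the 1 called. The part of these cell types in the values of the Slc22 genes was not tested.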

How the data were processed

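Total liver RNA pools were hybridized to Agilent 4x44K v2 mouse arrays. For each spot the deposited scanner output gives the intensity after background subtraction and dye normalization, and the log10 ratio of red over green, which the authors obtained with Feature Extraction 10.7.1.1. A p-value per spot from the software's error model was also deposited by the authors and was not used. The deposited series table holds the same log10 ratios (largest difference 0). Here ratios were converted to log2 and turned by the dye named in the labels. Non-uniform outlier spots (0 to 10 per array) were left out, and spots of a probe were averaged. Names came through RefSeq accessions for 26055 of 39429 probes, and the brightest probe stood for a gene.

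All 14 arrays were fitted with limma 3.58.1 (R 4.3.3), with 7 comparison coefficients and a dye term, which leaves 6 residual degrees of freedom per probe before moderation. Benjamini-Hochberg adjustment covered all probes and 7 comparisons together. Differences between the sexes in the change with age, and between 3 and 4 wk through 8 wk, were contrasts of this fit, adjusted within each. Levels were made apart from the ratios, from the raw median signals. These had normexp background correction (offset 50), loess within arrays and quantile normalization of the average intensity between arrays. The resulting intensities were averaged over the arrays of a pool. Level differences can therefore be smaller than the ratios: mean Slc22a3 was 8.01 in M8 and 8.83 in F8, and its M8/F8 log2 ratio was -1.17. Pools of the same number were reused between comparisons. Only 2 arrays per comparison limit the precision. Arrays lay on 4 slides, and their names hold 2 codes that were read as scan days, with each comparison within 1 code. Whether these codes are days was not checked. Promoters were read from RefSeq (GRCm38.p6) and aligned with Biopython 1.88.

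The genes, gene lists and tests were chosen with earlier results of these data known. Genes named were the members in all comparisons, other Slc22 genes that were called, up to 3 called genes of each list, and the 3 genes outside the family nearest to each member called in M8/F8. Some genes that these rules name are not reported here. The alternatives covered the dye term, slide and replicate blocks, group means, shared pools, normexp background correction with loess, filters, the fold threshold, the adjustment, an error-weighted average after the methods (unadjusted p below 0.0001), the probe of a gene and leaving out each array.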

Additional observations from a re-analysis of the deposited data

Results flagged for a closer look

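These 2 results stood out because the change with age differed between males and females in a test of that difference. For Slc22a26 the log2 change from 3 to 8 wk in males minus that in females was -5.25 (limma, adjusted p = 0.0182), with both male arrays below 0 and both female arrays above 0. For Slc22a28 the same difference was 1.13 (limma, adjusted p = 0.0146), with all 4 arrays above 0 and both male values above both female values. Neither call remained without M8/M3 array 1, M8/M3 array 2 or F8/F3 array 1, and that of Slc22a26 was also lost without F8/F3 array 2.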

How the results depend on the processing

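No called ratio of a member changed sign under any alternative. Slc22a26 and Slc22a28 in the 3 comparisons that hold M8, Slc22a5 in M8/M3, F8/F3 and F8/F4, Slc22a28 in F8/F3 and Slc22a7 in F8/F4 kept their calls under all 15 alternatives each. The highest adjusted p among them was 0.047, for Slc22a26 in M8/M4. The M8/F8 log2 ratio of Slc22a26 ranged from -6.23 to -3.87. The call of Slc22a3 in M8/F8 and that of Slc22a7 in F8/F3 were lost under the error-weighted average.

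The number of called members moved as follows. In M3/F3 the 1 call became 0 without the dye term, with normexp and loess, with adjustment within each comparison and with the error-weighted average. In M4/F4 the 1 call became 0 under the first 3 of these and 2 without a fold threshold. Without a fold threshold the count rose from 3 to 5 in M8/M3, from 2 to 5 in M8/M4, from 3 to 4 in F8/F3 and from 2 to 3 in F8/F4. The M4/M3 count through M8 became 0 with the slide as a block. The 4 to 8 wk sex difference in age change gained 1 call, Slc22a26, with 6 group means, with normexp and loess, with only probes well above background everywhere and with the error-weighted average. The F4/F3 count through F8 gained 1 call, Slc22a28, with 6 group means, shared pools and the error-weighted average. Leaving out single arrays gave 0 to 1 calls in M3/F3, 0 to 0 in M4/F4, 0 to 1 for the 3 to 8 wk sex difference in age change and 0 to 0 for M4/M3 through M8. The share of all genes called under each alternative was not computed, so whether these shifts are particular to the members was not tested. The causes were not tested beyond the construction of each alternative.

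With a replicate block, the counts were 1 in M3/F3, 1 in M4/F4, 3 in M8/F8, 3 each in M8/M3 and F8/F3, 2 each in M8/M4 and F8/F4, 2 and 0 for the sex differences in age change, and 1 and 0 for M4/M3 and F4/F3, as without the block. Between groups the samples share only a replicate number: the replicate differences of comparisons without a common group correlated with mixed signs, and no sample was paired. Of 70 uncalled ratios and contrasts of members, 22 took the other sign under at least 1 alternative, in 39 of 1093 recomputed values. Only 2 arrays per comparison and pooled mice limit what can be detected.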
